A study of Mus musculus with 4 samples.

Results

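The mRNA levels of 6 enzymes of the pentose phosphate pathway were compared between mouse induced regulatory T (iTreg) cells cultured with or without ferrous sulfate. The members were the gene rows whose Ensembl ID carries the symbol Pgls or Pgd (oxidative branch) or Rpia, Rpe, Tkt or Taldo1 (non-oxidative branch). All 6 were found among the 47729 gene rows of the table, and all 6 were among the 13732 genes that passed the filter on low counts and were tested.

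CD4 T cells from C57BL/6 mice, with spleen as the labeled tissue, were cultured for 4 days under stimulation through CD3 and CD28, with blocking antibodies to IL-4 and IFNγ (5 µg/mL each) and with IL-2 (100 U/mL) and TGF-β (5 ng/mL). One group received FeSO4 (50 µM) and the other PBS (Mock), with 2 libraries each. All cells were wild type. The study's methods give the libraries as pairs from independent experiments and describe no sort of the cells after culture. Wild-type mice were 6 to 8 weeks old, per the reporting summary.

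The pentose phosphate pathway branches off from glycolysis at glucose 6-phosphate. Its oxidative branch makes NADPH, the reducing power for fatty acid and sterol synthesis and for the glutathione and thioredoxin systems, and ends in ribulose 5-phosphate. The non-oxidative branch interconverts sugar phosphates in both directions, so that a dividing lymphocyte can draw ribose 5-phosphate for nucleotides from it, or return carbon to glycolysis.

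The gene rows of a library summed to 35183187 to 40859178 reads, of which the 6 enzymes together held 42461 to 48441. At this depth a count of 0 allows at most 0.0717 to 0.0876 CPM (3 counts; CPM are read counts relative to the TMM-scaled library size). Of the 4 T cell markers, Cd3e, Cd4 and Il2ra did not pass the test, and Foxp3, the defining factor of Treg cells, was read in every library but fell by 0.59 ± 0.09 on a log2 scale (SE, adjusted p = 0.000223, edgeR), with a mean of 640 ± 75.5 CPM in Mock against 424 ± 67.9 CPM with FeSO4 (SD, n = 2 each). Of 12 markers of other cells (CD8 T, B, NK, myeloid and erythroid), 11 were matched and 4 were tested. Their summed level was 41.4 and 30.7 CPM in the Mock libraries against 49.7 and 45.4 CPM with FeSO4, and Ncr1 and Klrb1c were at 0 counts in every library. Of this sum the erythroid marker Hba-a1, a hemoglobin gene, held 24.5 and 19.6 CPM in Mock and 37.5 and 32.5 CPM with FeSO4. The 3 myeloid markers, none of which passed the filter, went from 4.26 and 0.191 CPM in Mock to 0.0292 and 0.0270 CPM with FeSO4, with 164 and 8 counts of Lyz2 in Mock and 0 in both FeSO4 libraries. Hba-a1 was the 1 marker of the 4 tested that rose, with a log2 fold change of 0.66 ± 0.12 (adjusted p = 0.000731, edgeR). The calls of Foxp3 and Hba-a1 were lost without the filter on low counts. The part of these cells in the values of the pathway was not tested. In bulk samples such as these, fewer cells of a type and less RNA per cell cannot be told apart.

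Of the 6 enzymes, 4 rose with FeSO4 in edgeR's quasi-likelihood test (adjusted p under 0.05) and 2 were not called. By the same test 20.0% of all tested genes were called, 10.9% as higher and 9.17% as lower. With library size only in place of TMM, the calls over all genes turned from 1491 higher and 1259 lower to 980 higher and 1810 lower. The CPM of both FeSO4 libraries lay above those of both Mock libraries for the same 4 enzymes, as for 30.1% of tested genes, and 59.5% of tested genes did not overlap in either direction. The largest rises were those of Rpia and Tkt, both of the non-oxidative branch, at 1.49-fold and 1.45-fold. Pgd and Taldo1 rose less, by 1.29-fold and 1.18-fold, and Pgls and Rpe did not pass the test. None of the 6 was called lower by edgeR, at an unadjusted p under 0.05 the number was also 0, and DESeq2 and limma-voom gave 0 as well. Of the 4 calls, 3 remained with library size only, and 2, those of Rpia and Tkt, without the filter on low counts or without FeSO4 replicate 1. The median log2 fold change of the 6 enzymes was 0.30, against -0.00052 over all tested genes.

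**Figure D1:**
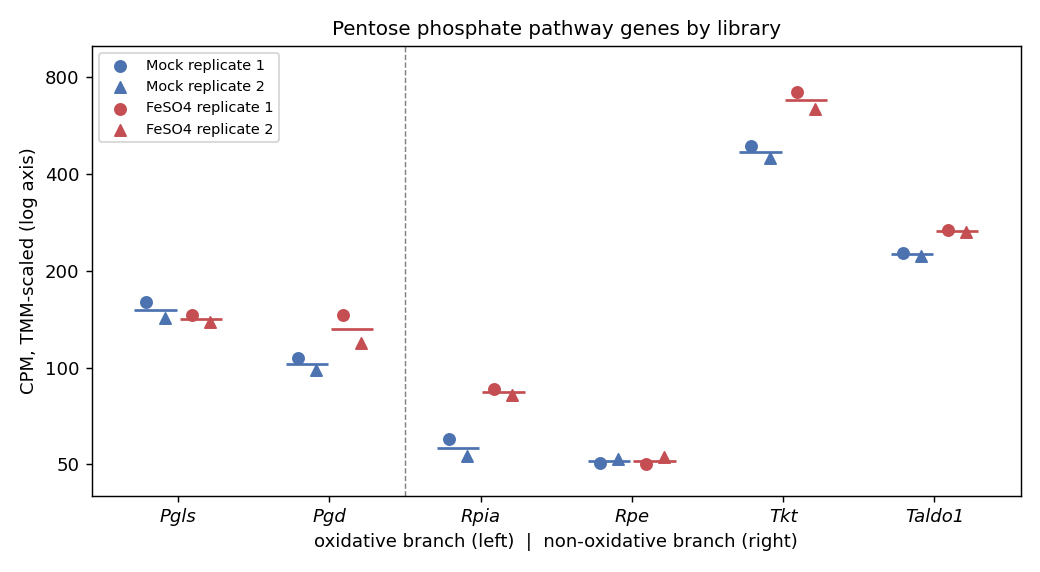
CPM of the 6 enzymes in each library (log axis). Circles are replicate 1, triangles replicate 2, and horizontal lines the means of the 2 libraries of a group. The FeSO4 libraries lie above both Mock libraries for Pgd, Rpia, Tkt and Taldo1, and the groups overlap for Pgls and Rpe.

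In the oxidative branch, Pgls encodes 6-phosphogluconolactonase, which hydrolyzes the lactone formed in the entry step to 6-phosphogluconate. Pgls (ENSMUSG00000031807, chromosome 8 at 71592184 to 71596267, plus strand, on GRCm38.p6 in RefSeq as for all positions given here) was at 160 and 143 CPM without iron (Mock replicates 1 and 2) and at 146 and 138 CPM with it. The groups overlapped, with FeSO4 replicate 1 between the Mock libraries. Its log2 fold change was -0.09 ± 0.07 (SE, adjusted p = 0.425, edgeR), with a 95% interval of -0.24 to 0.06. In the GENCODE M1 annotation, 776 of the 3770 exonic bases of Pgls are shared with Fam129c on the same strand, so that reads in this stretch can be ambiguous, and how many were lost is not known.

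Pgd encodes 6-phosphogluconate dehydrogenase, an NADPH-making enzyme that releases ribulose 5-phosphate. Pgd (ENSMUSG00000028961, chromosome 4 at 149149991 to 149166705, minus strand) measured 107 and 98.2 CPM in the Mock libraries against 145 and 119 CPM in the FeSO4 libraries. The FeSO4 libraries were both higher, but they differed from each other by more than the lower of them differed from the higher Mock library. The log2 fold change was 0.36 ± 0.09 (SE, adjusted p = 0.00675, edgeR). Leaving out FeSO4 replicate 1 gave 0.22 and leaving out FeSO4 replicate 2 gave 0.50, and the call was lost in the former case (adjusted p = 0.159) and with no filter on low counts (adjusted p = 0.125).

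Rpia and Rpe stand at the fork of the pathway, since both act on ribulose 5-phosphate. Rpia encodes ribose 5-phosphate isomerase A, which makes the ribose 5-phosphate used for nucleotides. Rpia (ENSMUSG00000053604, chromosome 6 at 70765720 to 70792175, minus strand) measured 59.9 and 53.0 CPM in Mock libraries against 85.7 and 82.2 CPM in FeSO4 libraries. The groups were well apart, with a spread of 6.88 CPM between the Mock libraries and of 3.54 CPM between the FeSO4 libraries. The log2 fold change was 0.57 ± 0.08 (SE, adjusted p = 9.84e-05, edgeR), higher than that of 93.4% of tested genes.

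Rpe encodes ribulose 5-phosphate 3-epimerase, which makes the xylulose 5-phosphate that transketolase uses. Rpe (ENSMUSG00000026005, chromosome 1 at 66700797 to 66719805, plus strand) was at 50.6 and 51.8 CPM without iron and at 50.0 and 52.8 CPM with it. The 4 libraries lay within 2.79 CPM of each other, and both Mock values fell between the FeSO4 values. The log2 fold change was 0.0048 ± 0.08 (SE, adjusted p = 0.978, edgeR), with a 95% interval of -0.17 to 0.18, which does not reach the change of Rpia. Its sign changed with library size only (-0.060) and with the upper quartile (-0.014). The ratio of Rpia to Rpe counts within a library, which no scaling can change, was 1.18 and 1.02 in Mock and 1.72 and 1.56 in FeSO4. This pair was chosen after the values were seen, and the ratio was not tested.

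Tkt encodes transketolase, which moves ketol groups between sugar phosphates with thiamine diphosphate as its cofactor. Tkt (ENSMUSG00000021957, chromosome 14 at 30549131 to 30574724, plus strand) held the most reads of the 6 genes, with 19813 and 18708 counts in Mock and 24649 and 23509 counts in FeSO4. On the CPM scale the Mock libraries were at 488 and 447 and the FeSO4 libraries at 719 and 635. Replicate 1 was the higher library in both groups, and the lower FeSO4 library exceeded the higher Mock library by 147 CPM. The log2 fold change was 0.53 ± 0.07 (SE, 95% interval 0.39 to 0.68, adjusted p = 4.85e-05, edgeR), the smallest p of the 6.

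Taldo1 encodes transaldolase, which transfers dihydroxyacetone groups and works in series with transketolase. Taldo1 (ENSMUSG00000025503, chromosome 7 at 141392160 to 141402976, plus strand) measured 228 and 222 CPM in Mock libraries against 268 and 263 CPM in FeSO4 libraries. The unscaled counts of the groups overlapped (9244 and 9302 in Mock, 9172 and 9750 in FeSO4), and the groups separated only after scaling by library size. The log2 fold change was 0.24 ± 0.06 (SE, adjusted p = 0.0111, edgeR). The call was lost with library size only (0.17, adjusted p = 0.0522), without the filter on low counts (adjusted p = 0.0561) and without FeSO4 replicate 1 (adjusted p = 0.0807).

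**Figure D2:**
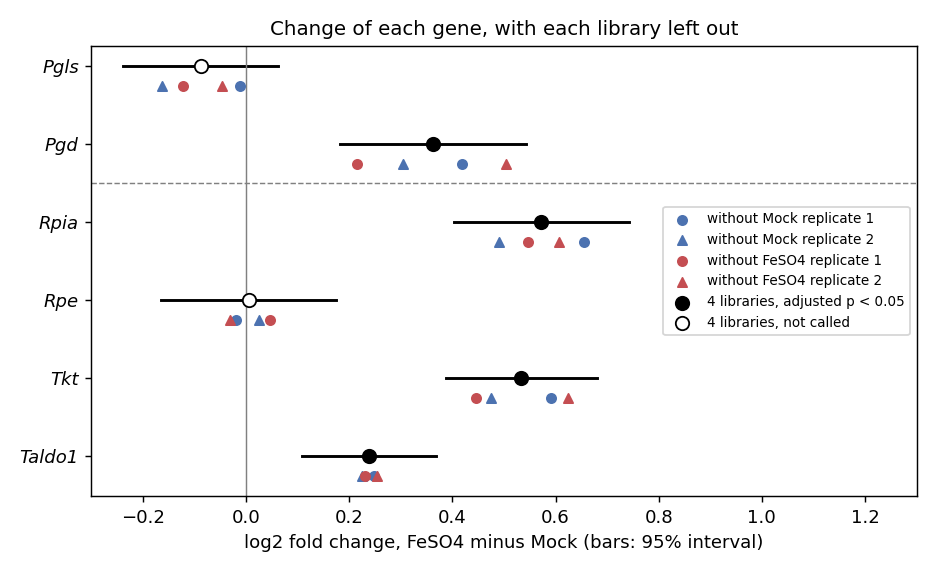
log2 fold change of each enzyme, FeSO4 minus Mock, in the fit of 4 libraries (large circles, filled where the adjusted p is under 0.05, bars 95% intervals) and with each library left out in turn (small symbols). Rpia and Tkt stay between 0.45 and 0.66 whichever library is left out, whereas Pgd ranges from 0.22 to 0.50 and Rpe lies on both sides of 0.

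Tkt and Rpia were called higher under each of the 12 alternatives of test, scaling, filter and libraries, with an adjusted p of at most 0.0259. At the study's threshold (DESeq2, unadjusted p under 0.05, log2 fold change of 0.5 or more in size), 2 of the 6 enzymes, these same 2, were called higher and 0 lower. That threshold called 5.20% of 22164 genes, 2.21% as higher and 2.99% as lower. Here as elsewhere, higher and lower are FeSO4 against Mock as the columns of the table are labeled. At this threshold the study reports more genes up than down with iron, the reverse of the split here. Why the splits differ was not tested, and the directions given here rest on the column labels.

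The genes of each branch were next compared as sums. Pgls and Pgd summed to 254 ± 18.3 CPM in Mock against 274 ± 23.9 CPM with FeSO4, and the 4 non-oxidative genes to 801 ± 36.8 against 1078 ± 63.2 CPM (SD, n = 2 each). The mean was 8.05% higher with FeSO4 in the former and 34.7% higher in the latter. Of all reads on the 6 enzymes, Pgls and Pgd held 24.4% (95% Wilson interval 24.0 to 24.8) and 23.7% (23.3 to 24.1) in Mock, and 20.6% (20.23 to 20.95) and 19.9% (19.6 to 20.3) in FeSO4. The share of each FeSO4 library was below that of each Mock library, and the group means differed by -3.79 percentage points. These intervals cover counting error only, and no test was run on a sum over chosen genes.

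This shift rested on few genes. Tkt alone made up 44.7 and 44.1% of the reads on the 6 enzymes in Mock and 50.9 and 49.2% in FeSO4. With Pgls left out, the share of Pgd was 11.5 and 11.3% in Mock and 11.5 and 10.3% in FeSO4, so that the groups overlapped. The log2 ratio of the summed counts of Pgls and Pgd to those of the non-oxidative genes differed by -0.32 between FeSO4 and Mock, and by -0.20 when each gene was given equal weight. In each branch 1 gene (Pgls, Rpe) was not called, and differences between the genes of a branch were not tested.

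Ratios between neighboring enzymes were then taken within each library, with the pairs chosen after the values were seen. Pgls had 1.49 and 1.45 counts per Pgd count in Mock and 1.004 and 1.16 in FeSO4. The ratio of Tkt to Taldo1 was 2.14 and 2.01 in Mock and 2.69 and 2.41 in FeSO4. The groups did not overlap in either ratio. With 2 libraries a group, an exact permutation test of a ratio cannot go below p = 0.333.

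**Figure D3:**
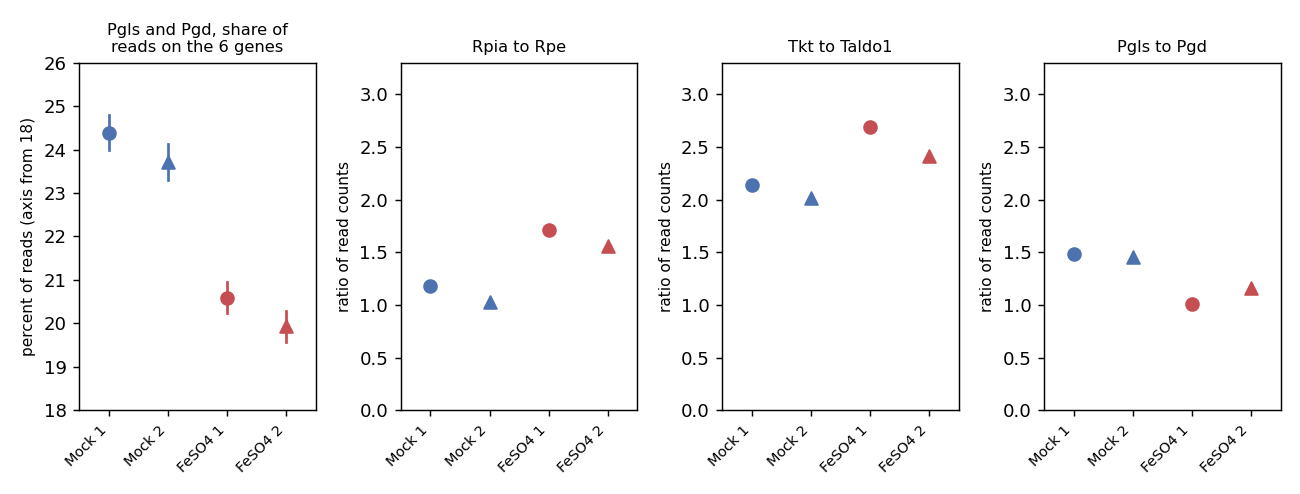
Share of the reads on the 6 genes that lie on Pgls and Pgd (left, percent, axis from 18, bars 95% Wilson intervals) and 3 ratios of read counts between enzymes, by library (circles replicate 1, triangles replicate 2). The share and the ratio of Pgls to Pgd are lower in both FeSO4 libraries, and the ratios of Rpia to Rpe and of Tkt to Taldo1 are higher.

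To compare levels between genes, CPM were divided by the length of the longest coding transcript in GENCODE M1. In Mock the order was Taldo1 (183 ± 3.10 CPM per kb), Tkt (145 ± 8.98), Pgls (104 ± 8.28), Pgd (46.3 ± 2.85), Rpia (30.9 ± 2.66) and Rpe (18.9 ± 0.305; SD, n = 2 each). No neighbors in this order overlapped in Mock. Pgd was thus below Pgls of the same branch. In FeSO4 Taldo1 (216 ± 2.49 CPM per kb) and Tkt (210 ± 18.5) overlapped, and the rest kept their order. The order depends on the lengths used, which come from an annotation older than that of the counts. For Pgls the transcript used spans chromosome 8 at 74116083 to 74124991 on NCBIM37, a longer stretch than the RefSeq gene given above. The level of Pgls per kb, and its place in the order, are thus less certain.

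Copies of these genes elsewhere in the genome can take reads from them, because reads that aligned to more than 1 place were not counted. When the longest coding transcripts were aligned to NCBIM37 with minimap2, Rpe and Taldo1 each had 1 intronless copy of at least 300 bases at 90% identity, and Pgls, Pgd, Rpia and Tkt had none. The copy of Taldo1 on chromosome 10 covered 99.8% of the transcript at 95.2% identity, and that of Rpe on chromosome 2 covered 38% at 96.8%, both with no annotated gene there. The levels of these 2 genes are thus less certain than those of Tkt and Rpia. Exons of Rpe also overlap those of a gene on the opposite strand (1110028C15Rik, 563 bases), and whether the counting used strand is not given in the sources used here.

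The promoters of the 6 genes (250 bases before to 50 after a start site, RefSeq, GRCm38.p6, 7 windows because Pgd has 2) were searched on both strands for 4 motifs by their letters. Their G and C content was 51.3 to 67.3%, against a median of 52.7% over all 32851 promoter windows. The antioxidant response element, TGACNNNGC, the site of NRF2 and its small MAF partners, was found in the second window of Pgd, at position 4 from that start site, and in 12.4% of all windows. This second window (149166033 to 149166332) lies inside the gene. The first window of Pgd (149166656 to 149166955), at the annotated start of the gene, did not hold these letters. The hypoxia response element core, ACGTG, the E-box CACGTG, which contains it, and the sterol regulatory element were in none of the 7 windows and in 19.6%, 7.15% and 0.0913% of all windows. The match is shown in capitals in the stretch around it, on the minus strand as the gene is read, because it marks where these letters lie in the NADPH-making enzyme of the 6.
Pgd antioxidant response element, chr4:149166060-149166089: atttcagagcTGACATTGCactgatcggac

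Tkt and Rpia, with the largest rises, held none of the 4 motifs in their windows, which says only that these letters are not there.

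Genes around the pathway were described by lists that hold its paralogs and side enzymes, its products' users and its upstream route. Of all tested genes, edgeR called 10.9% higher and 9.17% lower. The counts of each list, and of the regulators further below, are to be read beside these shares. Of 16 side enzymes, 12 were tested, 3 rose, 0 fell (also 0 at an unadjusted p under 0.05, and 0 by DESeq2 and limma-voom) and 9 were not called, with a median log2 fold change of 0.11. Gpi1, the isomerase that joins the pathway to glycolysis, rose by 0.30 ± 0.06 (SE, adjusted p = 0.00296). Prps1, which turns ribose 5-phosphate into the nucleotide precursor PRPP, rose by 0.35 ± 0.08 (adjusted p = 0.00329). The gene with the symbol Pgm2 in GENCODE M1 (ENSMUSG00000025791) rose by 0.37 ± 0.09 (adjusted p = 0.00592, all edgeR). It was taken into the list by this older symbol alone. Which enzyme of its family the ID encodes was not checked, so its place among the side enzymes is not certain. Tigar, a phosphatase that favors flow into the pathway, had a log2 fold change of 0.19 ± 0.10 and was not called (adjusted p = 0.196). All 3 calls were lost without the filter on low counts, and that of Prps1 also without FeSO4 replicate 1. The transketolase paralogs were hardly read, with 0 counts of Tktl2 in each library and at most 5 of Tktl1, and Prps1l1 and Fbp1 had 0 as well.

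Among 7 genes that use PRPP, 3 rose, 0 fell (0 at an unadjusted p, 0 by DESeq2 and limma-voom) and 4 were not called (median 0.29). The purine salvage genes Aprt and Hprt rose by 0.41 ± 0.07 and 0.35 ± 0.06 (SE, adjusted p = 0.000705 and 0.00112, edgeR). Nampt, of NAD salvage, rose by 0.29 ± 0.07 (adjusted p = 0.00718), a call lost without Mock replicate 1, without FeSO4 replicate 1 and without the filter. Ppat, the entry of new purine synthesis, had a log2 fold change of 0.18 ± 0.08 and was not called (adjusted p = 0.119).

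Of 10 genes on the list of other NADPH sources, 9 were matched and 7 tested, 2 rose, 0 fell (0 at an unadjusted p, 0 by DESeq2 and limma-voom) and 5 were not called (median 0.24). Idh1, the cytosolic NADP-dependent isocitrate dehydrogenase, was at 13.0 CPM in each Mock library and at 18.8 and 21.7 CPM with FeSO4 (log2 fold change 0.64 ± 0.13, adjusted p = 0.00169, edgeR). Idh2, its mitochondrial counterpart, was near the threshold (0.24 ± 0.08, adjusted p = 0.0494) and lost the call under 10 of 12 alternatives. The malic enzyme gene Me1 had 25 and 3 counts in Mock and 31 and 27 in FeSO4, and Aldh1l2 had 1 to 11 counts, and neither was called (adjusted p = 0.191 and 0.198). The log2 fold change of Me1 was 1.25 over the 4 libraries, 0.40 without Mock replicate 2 (adjusted p = 0.715, edgeR), and 3.44 without Mock replicate 1, where it was called against a lone Mock library of 3 counts. Me3 had at most 1 count per library.

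Among 10 genes whose enzymes spend NADPH, 9 were tested, 5 rose, 0 fell (0 at an unadjusted p, 0 by DESeq2 and limma-voom) and 4 were not called (median 0.39). The smallest p were those of Sqle of sterol synthesis (0.98 ± 0.07), Fasn of fatty acid synthesis (0.40 ± 0.07), the quinone reductase gene Nqo1 (0.74 ± 0.12) and the glutathione reductase gene Gsr (0.39 ± 0.08, SE, adjusted p from 4.71e-08 to 0.00326, edgeR). Leaving out 1 library gave 0.47 to 0.97 for Nqo1, the lowest without FeSO4 replicate 1. The calls of Nqo1 and Gsr were lost without the filter on low counts. That of Gsr was also lost without FeSO4 replicate 1, where its log2 fold change was 0.295. In that fit Gsr was not the only gene of the list to lose its call. On the glycolysis list 12 of 16 genes rose and 0 fell (0 at an unadjusted p, 0 by DESeq2 and limma-voom), with a median of 0.47. The smallest p were those of Aldoc (2.25), Aldoa (0.77), Tpi1 (0.76) and Pgk1 (0.66), of which several have processed pseudogenes that make their levels less certain. These lists share the Mock and FeSO4 libraries with the 6 enzymes, so that their medians are side by side only as a description.

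**Figure D4:**
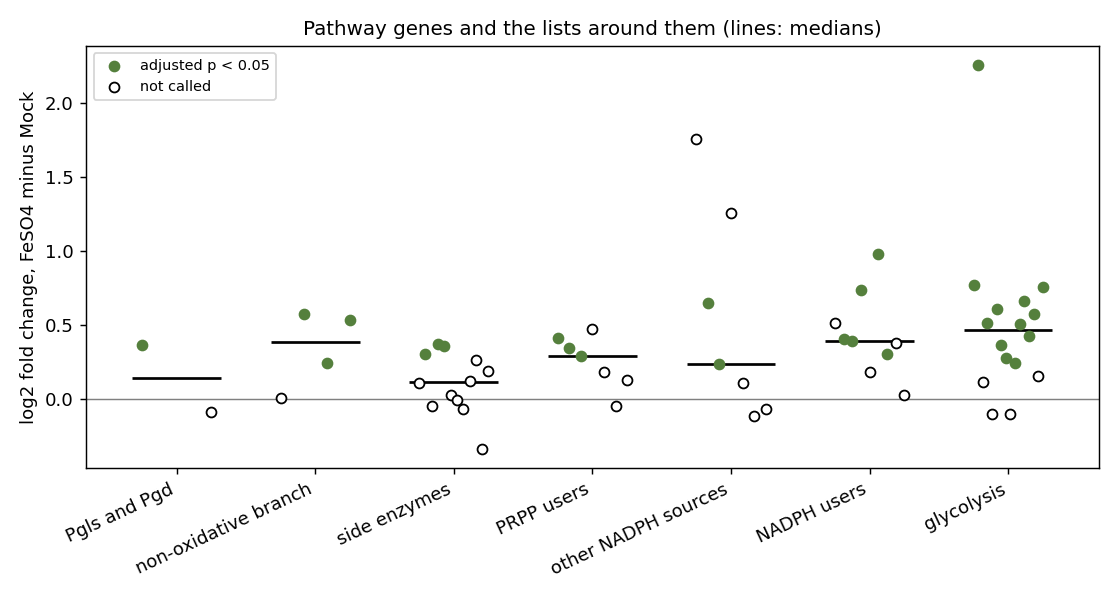
log2 fold change, FeSO4 minus Mock, of each tested gene of the branches and of the lists around them. Filled points have an adjusted p under 0.05, open points were not called, and lines are medians, which run from 0.11 for the side enzymes to 0.47 for glycolysis.

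Transcription factors known to act on genes of this pathway were measured in the same libraries. Of 8 genes of this kind and their partners, 5 rose, 0 fell (0 at an unadjusted p, 0 by DESeq2 and limma-voom) and 3 were not called. Nfe2l2, which encodes NRF2, measured 62.0 and 63.8 CPM in Mock libraries against 87.0 and 78.3 CPM in FeSO4 libraries (log2 fold change 0.39 ± 0.08, SE, adjusted p = 0.00199, edgeR). The gene of its inhibitor, Keap1, was close to the threshold (0.22 ± 0.07, adjusted p = 0.0426) and lost the call under 7 of 12 alternatives. Srebf1 (0.82 ± 0.06), Srebf2 (0.36 ± 0.06) and Hif1a (0.49 ± 0.07) rose, and Trp53 (0.14 ± 0.06), Myc (-0.02 ± 0.07) and Bach1 (-0.04 ± 0.12) were not called. Their part in the levels of the 6 enzymes was not tested.

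Tkt, the enzyme of smallest p, was also matched to the profile of every other named gene of at least 10 CPM by the root mean square difference of log2 CPM, centered per gene, over the 4 libraries. Of 8437 genes compared, the nearest were Txn1 (difference 0.0088), which encodes thioredoxin, Hmgb3 (0.0179) and Slc25a1 (0.0179), which encodes the mitochondrial citrate carrier. Txn1 measured 402 and 374 CPM in Mock libraries against 602 and 529 CPM in FeSO4 libraries. Over 4 libraries such a likeness is a description of these samples.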

How the data were processed

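The authors deposited a table of unnormalized read counts with a row for each Ensembl gene and a column for each of the 4 libraries. Per the study's methods, reads were mapped to mm9 with STAR and tested with DESeq. The submitters' processing notes name Trim Galore 0.6.7, STAR 2.7.9a, featureCounts and mm10. The sources thus differ on the build, and gene IDs reach beyond the NCBIM37 annotation. The rows of unassigned reads carry the names used by another program, htseq-count, so which program counted the reads is not certain. Rows of unassigned reads (reads aligned to more than 1 place were 4.27 to 4.62% of a library) were left out.

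The counts were fitted by edgeR 4.0.16 under R 4.3.3 (filterByExpr by group, TMM, quasi-likelihood F test, Benjamini-Hochberg over 13732 genes). CPM use TMM-scaled library sizes, and SE is the fold change divided by the root of F. Genes were called at an adjusted p under 0.05. DESeq2 1.42.0, limma-voom (limma 3.58.1), other scalings, no filter, a replicate block and each library left out were alternatives. The fit was tested on simulated data. Copies were sought with minimap2 2.31. Symbols came from GENCODE M1 IDs, and Nadk2 and Hbb-bs were not matched. Named were the 6 members, of each list at most 4 genes, those of smallest p, genes of at most 3 counts, regulators, markers and the 3 genes most like Tkt. Genes beyond this rule are Tktl1, Fam129c and 1110028C15Rik, named for overlap or paralogy. Members and lists were chosen with earlier results of these data known. A few genes of the pathway and of the lists are not reported here and entered no count of a list, sum or ratio.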

Additional observations from a re-analysis of the deposited data

Results flagged for a closer look

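No library could be tested as an outlier with 2 libraries per group. Among the reads outside the gene rows, the share aligned to more than 1 place was 4.6 and 4.62% with FeSO4 against 4.42 and 4.27% in Mock, so that both treated libraries were above both control libraries. The share of reads with low alignment quality was 0.978 and 0.988% with FeSO4 against 0.802 and 0.929% in Mock, again above both controls. The share of reads in no annotated gene went the other way, with 4.36 and 5.21% with FeSO4 against 5.31 and 6.03% in Mock. Whether reads of Rpe or Taldo1 and their copies are among those aligned to more than 1 place was not tested.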

How the results depend on the processing

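Of 72 results for the 6 enzymes under alternatives, 63 kept direction and call, 5 lost the call and 4 changed sign. All 4 were of Rpe, which was never called: -0.060 with library size only, -0.014 with the upper quartile, -0.019 without Mock replicate 1 and -0.032 without FeSO4 replicate 2, which was the lowest of the values with 1 library left out (highest 0.047). With library size only, Taldo1 (0.17) lost the call, leaving 3 of all 6, among 980 higher and 1810 lower genes. Without the filter, Pgd (0.37) and Taldo1 (0.24) lost it, leaving 0 oxidative enzymes, 2 of all 6, 0 side enzymes, 1 NADPH source and 2 NADPH users, among 524 higher and 304 lower genes. The study's threshold gave 0 oxidative enzymes and 2 of all 6, among 489 higher and 663 lower genes. The study itself reports more genes up than down with iron at this threshold, and why the splits differ was not tested. With 1 library left out, the values were 0.22 to 0.50 for Pgd and 0.22 to 0.25 for Taldo1, with 0 to 1 oxidative enzymes, 2 to 4 of all 6, 1 to 3 NADPH sources, 3 to 5 NADPH users, and 893 to 1199 higher and 710 to 1158 lower genes. The lowest counts were without FeSO4 replicate 1, and in these fits the lone library of a group is assumed to vary like the other group. NADPH sources called numbered 1 also with DESeq2, limma-voom, library size only, the upper quartile, DESeq2 size factors in edgeR and the legacy fit, which was added after seeing the data. The log2 ratio of the branches was -0.20 with equal weight of genes, against -0.32. In other named genes, none of them called, signs changed with 1 library left out, over ranges of -0.084 to 0.033 for Myc, -0.19 to 0.12 for Bach1, -0.073 to 0.12 for Il2ra (-0.041 with library size only), -1.19 to 0.64 for Cd8a and -0.37 to 0.14 for Cd79a. Me1 (1.25) was called without Mock replicate 1 (3.44) but not without Mock replicate 2 (0.40). The cause was not tested. Replicate numbers are not tied to the experiments by the labels, and deviations of same-numbered libraries correlated at 0.0293. With the replicate number as a block, Tkt was at 0.53, Rpia at 0.57 and Pgd at 0.36, 4 of 6 enzymes were called, and 1847 genes were higher and 1580 lower, so no call of an enzyme changed.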
